A study of Mus musculus with 9 samples.

Results

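The 26S proteasome is the protease that degrades ubiquitin-tagged proteins, and its genes were followed here in mouse liver. Members were the genes of the table whose symbol begins with Psma, Psmb, Psmc, Psmd, Psme, Psmf or Psmg and a digit, with names ending in -ps omitted. This gave 50 of 21936 genes, chosen by name and not by level. Of these, 48 encode proteasome subunits, activators, an inhibitor or assembly factors. The other 2 match the name only: Psmc3ip, a factor of meiotic recombination, and Psme2b, a single-exon copy of Psme2 whose reads the counting might not tell from those of Psme2. A gene was tested where its FPKM (fragments per kilobase of exon, scaled to the library's total) reached 0.1 in 3 or more of the 9 livers, which 49 members did, as did 13817 genes in all.

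All mice were male WT C57BL/6, bought at 9 weeks of age, adapted for 1 week and fed for 4 weeks. The MCS group ate a diet sufficient in methionine and choline, the MCD group ate a diet deficient in both, and the 2 groups were gavaged with 0.5% sodium carboxymethylcellulose (CMC-Na). The HGPP group ate the MCD diet and was gavaged with Gynostemma pentaphyllum polysaccharides at the high dose of 300 mg/kg in the same vehicle. The MCD diet, used as a model of steatohepatitis, impairs fat export from hepatocytes. The study asked how the polysaccharides change the liver on this diet, with 3 livers sequenced per group.

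The proteasome has a barrel, the 20S core, of stacked alpha and beta rings. Psmb5, Psmb6 and Psmb7 encode its constitutive catalytic subunits, which cut after hydrophobic, acidic and basic residues, respectively. The 19S cap recognises ubiquitin chains, unfolds the substrate with a ring of ATPases and feeds it into the barrel. In the immunoproteasome, abundant in leukocytes and induced by interferon-gamma in other cells, Psmb8, Psmb9 and Psmb10 take the places of Psmb5, Psmb6 and Psmb7. Psme1 and Psme2 encode PA28 alpha and beta, an activator ring that interferon-gamma also induces and that opens the barrel without a cap. When proteasome activity drops, the transcription factor NRF1 (Nfe2l1) raises the proteasome genes together through antioxidant response elements.

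Promoters were compared as a description of their sequences, with no test. Of the 50 members, 42 had a promoter in the RefSeq table (build GRCm38.p6), from 250 bases before to 50 after the gene's start. The bases before the start are shown for the catalytic genes Psmb5 and Psmb6, which have a motif match there, and for Psmd8 and Psmg4, which rose and have none there. All run 5′ to 3′ on the gene's strand. The lines for Psmb5 and Psmb6 have the core of the antioxidant response element, TGACNNNGC, in capitals. They lie at chr14:54617996-54618245 (minus strand), chr11:70525107-70525356 (plus), chr7:29180674-29180923 (minus) and chr13:34162714-34162963 (plus).
Psmb5: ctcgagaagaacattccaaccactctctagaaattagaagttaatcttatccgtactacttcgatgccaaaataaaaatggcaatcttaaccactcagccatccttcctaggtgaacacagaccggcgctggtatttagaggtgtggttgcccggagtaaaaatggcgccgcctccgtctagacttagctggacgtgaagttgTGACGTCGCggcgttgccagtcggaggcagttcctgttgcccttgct
Psmb6: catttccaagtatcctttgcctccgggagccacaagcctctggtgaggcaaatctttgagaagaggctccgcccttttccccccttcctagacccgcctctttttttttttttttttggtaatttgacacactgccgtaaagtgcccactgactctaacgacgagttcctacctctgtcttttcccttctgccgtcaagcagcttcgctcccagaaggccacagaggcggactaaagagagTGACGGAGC
Psmd8: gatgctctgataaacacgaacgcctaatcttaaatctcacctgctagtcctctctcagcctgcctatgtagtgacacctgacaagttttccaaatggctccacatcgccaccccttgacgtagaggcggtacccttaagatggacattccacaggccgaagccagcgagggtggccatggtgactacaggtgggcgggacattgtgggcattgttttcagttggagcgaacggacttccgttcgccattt
Psmg4: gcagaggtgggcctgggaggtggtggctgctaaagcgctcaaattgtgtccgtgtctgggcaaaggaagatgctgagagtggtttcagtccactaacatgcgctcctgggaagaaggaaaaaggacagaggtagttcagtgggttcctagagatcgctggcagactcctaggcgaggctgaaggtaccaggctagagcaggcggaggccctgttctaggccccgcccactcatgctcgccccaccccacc

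The match in Psmb5 began 47 bases before the start and that in Psmb6 began 9 bases before it. On both strands, TGACNNNGC was present in 15.0% of the 40 proteasome promoters matched and in 14.0% of the promoters of all 27025 genes. The 6 proteasome genes with it were Psmb5, Psmb6, Psmc6, Psmd12, Psmd9 and Psme4. In MCD against MCS their log2 fold changes were 0.82, 0.48, 0.10, 0.06, -0.07 and -0.17. In HGPP against MCS they were 0.76, 0.30, 0.28, 0.21, 0.34 and 0.29. Of these genes only Psmb5 was called. The interferon regulatory factor element (a GAAA box, 2 further bases and a GAAA box) was present in 5 of the 40 (12.5%), namely Psmb3, Psmd4, Psmd9, Psme1 and Psmg4, and in 3.99% of all genes. Each of the 2 motifs was counted on its own, whether or not they overlapped. These are matches of letters only.

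Total fragments recovered from the FPKM steps were 14964994 to 18902847 in MCS, 11492654 to 16702367 in MCD and 13355282 to 15691032 in HGPP livers. The median of all genes tested was higher than in MCS by 0.40 in MCD and by 0.33 in HGPP livers on the log2 scale, and changes against MCS are to be read relative to it. Median-of-ratios scaling reduced these medians to 0.02 and 0.01. Hepatocyte markers were abundant in every liver, and the 6 in the table summed to 62684 to 78403 FPKM in MCS, 30396 to 63297 in MCD and 47340 to 56244 in HGPP livers. Their median log2 fold change against MCS was -0.72 in MCD, with 1 of 6 called lower, and -0.36 in HGPP livers, with 2 called lower. Of all genes tested, 2.55% and 2.48% were called lower. The 44 leukocyte markers summed to 42.2 to 96.9 FPKM in MCS, 227.8 to 1033 in MCD and 124.5 to 234.6 in HGPP livers. In bulk liver, fewer cells of a type and less RNA per cell cannot be told apart.

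Proteasome genes differed widely in FPKM, which is scaled to exon length. The mean over all 9 livers was highest for Psma6, an alpha-ring subunit, at 91.6 FPKM with a range of 64.3 to 113.7. It was followed by the beta-ring genes Psmb4 at 89.2 FPKM (69.3 to 121.4) and Psmb6 at 80.4 FPKM (61.8 to 98.9), and the ranges of these 3 genes overlapped. The immunoproteasome genes Psmb8 and Psmb9 had means of 3.47 FPKM (1.78 to 7.87) and 4.70 FPKM (3.41 to 7.65), below the lowest liver of Psmb5 and Psmb6. Exons of all annotated transcripts are merged in these lengths, which are 3381 bases for Psmb8 and 899 for Psmb5. Psmb11, the core subunit of thymic epithelium, did not pass the filter and was listed at 0, 0.0401 and 0.0139 FPKM in MCS, at 0.0182, 0 and 0 in MCD and at 0 in the HGPP livers, on at most 3 fragments. Psma8, the testis form of an alpha subunit, was at 0.137 to 0.642 FPKM on 5 to 25 fragments.

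In MCD livers, 3 of the 49 members tested rose and 0 fell against MCS, at a Benjamini-Hochberg adjusted p under 0.05 with limma. They were Psmb5 and the assembly genes Psmg2 and Psmg4, a share of 6.12% where 22.1% of all genes tested were called (19.6% higher and 2.55% lower). Of the 49, 11 had a log2 fold change above the median of all genes. In HGPP livers 8 members rose and 0 fell against MCS, a share of 16.3% where 18.8% of all genes were called (16.4% higher and 2.48% lower). These 8 were the same 3 genes with Psmb4, Psmc4, Psmd8, Psmd13 and Psme3. Between HGPP and MCD 0 members were called where 0.0217% of all genes were, and at an unadjusted p under 0.05 there were 4 of the 49 members beside 13.7% of all genes. Any 2 of these comparisons share the livers of 1 group, so their counts are not independent of each other.

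After median-of-ratios scaling, 0 members were called higher in the MCD group and 1 was called lower, Psmb7, where 8.91% of all genes were called higher and 7.37% lower. In HGPP livers 1 member, Psmd8, was then higher and 0 were lower, where 5.1% of all genes were called higher and 4.86% lower. The study called genes with DESeq on read counts, by an unadjusted p under 0.05 and a change of more than 1 log2 unit. Put to the limma fits used here, those thresholds passed 1 member in any comparison, Psmd8 in HGPP against MCS. In the same fits they passed 12.4% of all genes in that comparison, 21.3% in MCD against MCS and 6.09% in HGPP against MCD. The study's own calls of single members were not compared. Its gene set enrichment analysis lists a proteasome set among those that passed between MCD and HGPP. The score of that set had the opposite sign to that of its toll-like receptor set.

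**Figure D1:**
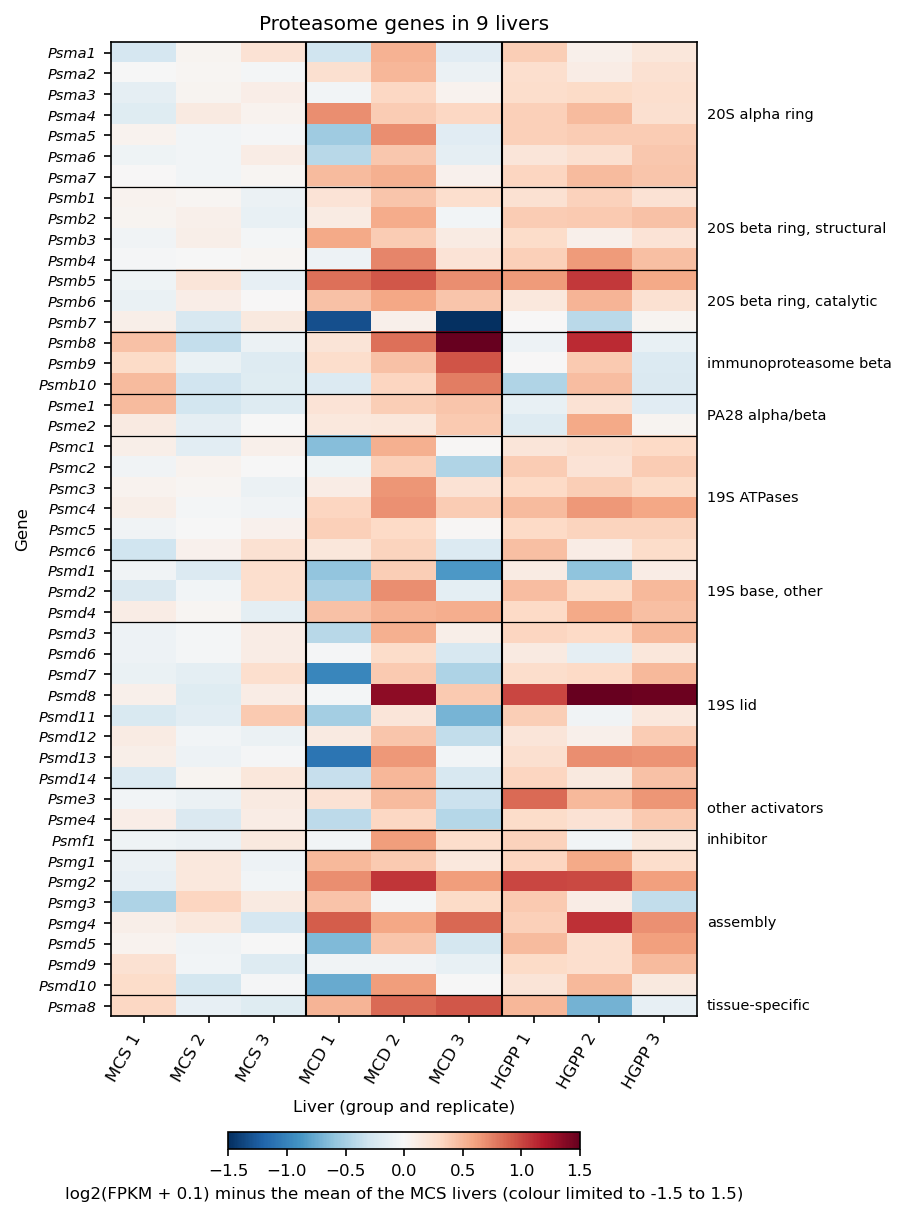
Level of 47 proteasome genes (rows, grouped by role) in each of the 9 livers (columns), as log2(FPKM + 0.1) minus the mean of the 3 MCS livers, with red higher and blue lower. Psmb5 was red in all MCD and HGPP livers, Psmb7 was blue in MCD replicates 1 and 3, and the rows of Psmb8, Psmb9 and Psmb10 were reddest in MCD replicate 3.

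Psmb5 encodes the catalytic subunit with chymotrypsin-like activity. It was at 32.4, 38.2 and 31.1 FPKM in the MCS livers, at 60.1, 64.7 and 54.9 in the MCD livers and at 52.5, 70.6 and 50.1 in the HGPP livers. Every liver on the deficient diet was above every MCS liver, and the ranges of the MCD and HGPP livers overlapped. It rose by 0.82 on the log2 scale in MCD (SE 0.19, adjusted p = 0.014, limma) and by 0.76 in HGPP livers (SE 0.17, adjusted p = 0.018). HGPP and MCD differed by -0.07 with a 95% interval of -0.53 to 0.40. With median-of-ratios scaling the rise was 0.40 in each contrast with MCS and did not pass (adjusted p = 0.16 and 0.17). The MCD call was also lost without MCS replicate 1 or MCS replicate 3, and the HGPP call without MCS replicate 3 or HGPP replicate 2.

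Psmb6 encodes the caspase-like subunit. Its FPKM was 61.8, 70.9 and 66.7 in MCS, 90.3, 98.9 and 88.9 in MCD and 74.1, 94.6 and 77.5 in HGPP livers. Both groups on the deficient diet lay above MCS without overlap. The differences from MCS were 0.48 (SE 0.18, adjusted p = 0.082, limma) and 0.30 (SE 0.14, adjusted p = 0.17), and neither passed.

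Psmb7 encodes the trypsin-like subunit and did not follow the other catalytic genes. It was at 16.3, 13.0 and 17.1 FPKM in MCS, at 6.08, 16.2 and 5.06 in MCD and at 15.4, 11.5 and 15.8 in HGPP livers. MCD replicates 1 and 3 were below every other liver, whereas MCD replicate 2 lay within the range of MCS. The log2 difference between MCD and MCS was -0.94 (SE 0.38, adjusted p = 0.099, limma), and between HGPP and MCD it was 0.82 (SE 0.39, adjusted p = 0.39). It was called lower in MCD with median-of-ratios scaling (-1.36, adjusted p = 0.035) and without MCD replicate 2 (-1.45, adjusted p = 0.0097). The same MCD replicates 1 and 3 had the highest sums of 9 mitochondrial transcripts, 81981 and 138058 FPKM, where MCD replicate 2 had 50399, MCS livers 35940 to 60527 and HGPP livers 45263 to 53893. The RNA integrity number, a measure of RNA breakdown that the study lists for each sample, was also lowest in these livers. Whether either has a part in the Psmb7 values was not tested. Psmb7 (chr2:38588036-38644087, minus strand, GRCm38) shares 11.8% of its exon bases with Nek6 on the opposite strand, and no strand setting of the counting is given. Nek6 was at 4.81 to 6.22 FPKM in MCS, 6.50 to 8.405 in MCD and 9.78 to 11.5 in HGPP livers.

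**Figure D2:**
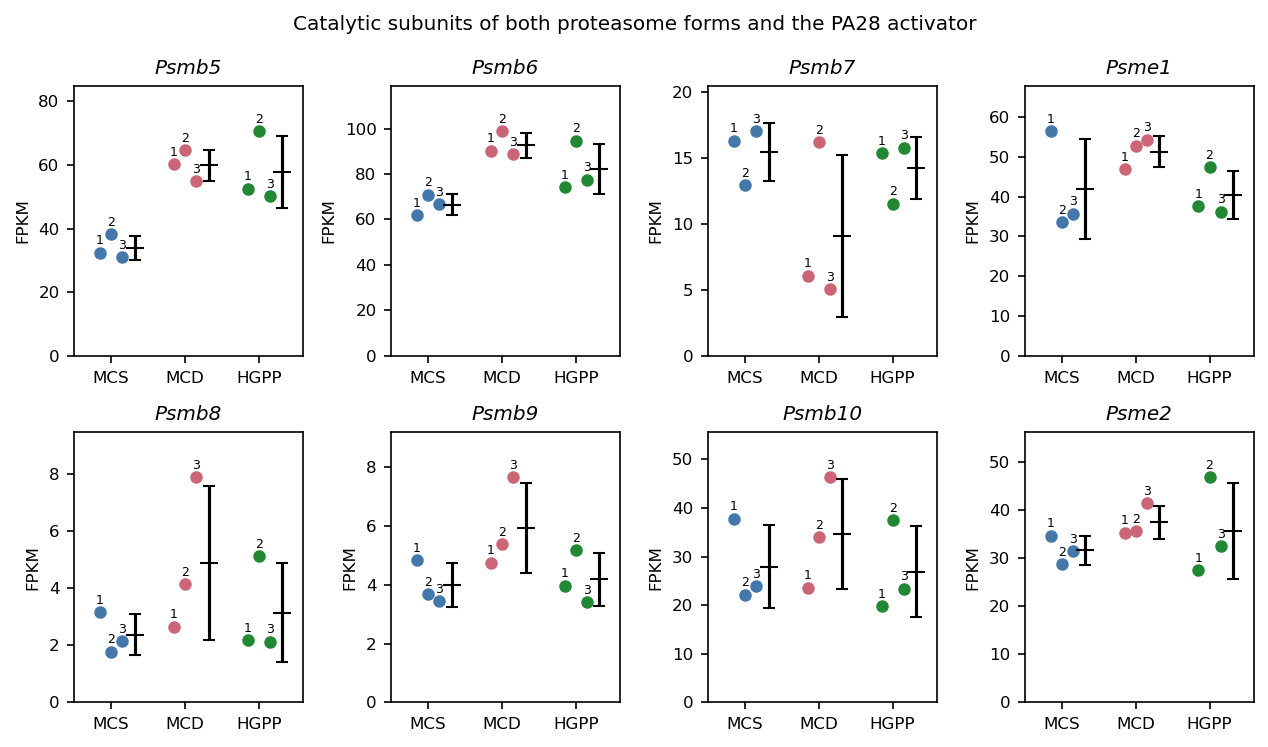
FPKM (linear axis from 0) of the constitutive catalytic genes Psmb5, Psmb6 and Psmb7, the immunoproteasome genes Psmb8, Psmb9 and Psmb10, and Psme1 and Psme2, with 1 numbered point per liver and bars for the mean and SD of 3 livers. Psmb5 and Psmb6 each separated MCS from both other groups. The immunoproteasome genes were each highest in MCS replicate 1, MCD replicate 3 and HGPP replicate 2 of their groups.

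The other 11 core genes were 7 of the alpha ring and 4 structural genes of the beta ring. None of the 7 alpha-ring genes was called in either contrast with MCS. The range of their log2 fold changes was -0.05 to 0.46 in MCD livers, and in HGPP livers it was 0.20 to 0.40. Psmb4, a structural beta subunit, was at 72.1, 73.0 and 74.4 FPKM in MCS, at 69.3, 121.4 and 84.5 in MCD and at 93.7, 113.8 and 100.4 in HGPP livers. It rose by 0.48 in HGPP against MCS (SE 0.13, adjusted p = 0.035, limma), with no overlap between these groups, and was the smallest of the 8 changes. This call was lost with median-of-ratios scaling (0.13, adjusted p = 0.64) and without any 1 of 5 livers, all but HGPP replicate 1. Over all 14 constitutive core genes the median log2 fold change was 0.25 in MCD, 0.29 in HGPP against MCS and 0.10 in HGPP against MCD. The medians of all genes were 0.40, 0.33 and -0.07.

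The immunoproteasome genes were not called in any comparison, and in each group all 5 were highest in the same liver. Psmb8, which replaces Psmb5, was at 3.16, 1.78 and 2.15 FPKM in MCS, at 2.65, 4.14 and 7.87 in MCD and at 2.17, 5.13 and 2.13 in HGPP livers. The 3 groups overlapped. Its log2 fold change was 0.92 in MCD against MCS (SE 0.38, adjusted p = 0.11, limma), and it was -0.60 in HGPP against MCD with a 95% interval of -1.59 to 0.38. Without MCD replicate 1 it was called higher in MCD (1.28, adjusted p = 0.026).

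Psmb9, which replaces Psmb6, was at 4.84, 3.67 and 3.43 FPKM in MCS, at 4.75, 5.38 and 7.65 in MCD and at 3.97, 5.19 and 3.41 in HGPP livers. MCD replicate 1 lay within the MCS range. The difference between MCD and MCS was 0.55 (SE 0.26, adjusted p = 0.15, limma), and between HGPP and MCD it was -0.48 (95% interval -1.07 to 0.10). Psmb9 shares 5.8% of its exon bases with Tap1, the neighbouring peptide transporter gene. Larger shares were 14.7% for Psmb8 with the antisense gene Gm20496 and 12.1% for Psmb5 with the microRNA gene Mir686. Psmd9 shares 25.5% with Gm26745, a long noncoding RNA gene. No FPKM is listed for Gm20496, Mir686 or Gm26745.

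Psmb10, which replaces Psmb7, was at 37.8, 22.1 and 23.9 FPKM in MCS, at 23.6, 34.1 and 46.3 in MCD and at 19.9, 37.5 and 23.4 in HGPP livers, with full overlap. Its difference between MCD and MCS was 0.30 (SE 0.29, adjusted p = 0.48, limma) and between HGPP and MCD it was -0.36 (95% interval -1.05 to 0.32). Psme1 was at 56.5, 33.6 and 35.7 FPKM in MCS, at 46.8, 52.7 and 54.3 in MCD and at 37.6, 47.3 and 36.2 in HGPP livers. The spread between MCS replicate 1 and the other MCS livers was wider than the difference of the MCD and MCS groups, 0.33 (SE 0.23, adjusted p = 0.33). Psme2 was at 34.7, 28.8 and 31.5 FPKM in MCS, at 35.4, 35.6 and 41.5 in MCD and at 27.6, 46.8 and 32.5 in HGPP livers. Its MCD livers lay just above its MCS livers, with a difference of 0.24 (SE 0.19, adjusted p = 0.37).

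The median log2 fold change of the 5 immunoproteasome genes was 0.33 in MCD, 0.07 in HGPP against MCS and -0.36 in HGPP against MCD, where 5 of 5 were below 0. All genes had medians of 0.40, 0.33 and -0.07. Relative to MCS with median-of-ratios scaling, the 5 genes had medians of -0.09 and -0.28. None of the 5 separated HGPP from MCS, where 36.7% of all genes lay higher without overlap, and 1, Psme2, separated MCD from MCS, where 38.1% did.

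T, NK and B cell markers had their group maxima in the same livers as the immunoproteasome genes, as did neutrophil and erythroid markers. The counts for these lists stand beside 19.6% of all genes called higher in MCD than in MCS. T cell markers (7 genes, Lck, Cd2 and Cd3g the most abundant) summed to 2.91, 1.32 and 1.01 FPKM in MCS, to 3.57, 3.23 and 9.39 in MCD and to 1.91, 3.45 and 1.55 in HGPP livers, and 2 of the 7 were called higher in MCD than in MCS. NK cell markers (7 genes, Nkg7, Gzma and Klrb1c the most abundant) summed to 2.66, 1.24 and 2.20 FPKM in MCS, to 2.55, 5.47 and 11.0 in MCD and to 1.63, 4.21 and 1.75 in HGPP livers, and 1 of 6 tested was called higher. B cell markers summed to 0.681 to 1.71, 3.996 to 17.6 and 0.970 to 1.98 FPKM, with 3 of 4 tested called higher in MCD. With median-of-ratios scaling 0 T cell, 0 NK cell and 2 B cell markers were called higher, where 8.91% of all genes were. In each of these lists the highest livers were MCS replicate 1, MCD replicate 3 and HGPP replicate 2. No T cell marker was at 0 in any liver, while of the NK cell markers Ncr1 was at 0 in MCS replicate 2 and Eomes in MCS replicate 1 and HGPP replicate 1. Neutrophil markers had the same maxima, at 9.92, 143.4 and 21.7 FPKM, with 6 of 6 called higher in MCD with and without this scaling. Erythroid markers, led by Hbb-bs and Hba-a1, also had them, at 336.6, 725.0 and 405.8 FPKM. Plasma cell markers instead were highest in MCS replicate 2, MCD replicate 1 and HGPP replicate 1, at 6.71, 3.34 and 2.701 FPKM. Monocyte and macrophage markers had their MCD maximum in replicate 2, at 924.3 FPKM against 597.7 in replicate 3. Kupffer cell markers also had their MCD maximum in replicate 2, at 598.0 FPKM against 371.4 in replicate 3. Dendritic cell markers were highest in MCS replicate 2, at 5.32 FPKM against 3.63 in replicate 1. Their other group maxima were in MCD replicate 3 and HGPP replicate 2. The part of any of these cells in the immunoproteasome values was not tested.

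The ratio of each immunoproteasome gene to its constitutive counterpart in the same liver is the same under any scaling by 1 factor per library, but not under quantile normalization, where the log2 fold changes of Psmb8 and Psmb5 in MCD against MCS were 0.45 and 0.75. Psmb8 was at 9.77, 4.65 and 6.93% of Psmb5's FPKM in MCS, at 4.41, 6.41 and 14.3% in MCD and at 4.14, 7.26 and 4.25% in HGPP livers. Psmb9 was at 5.14 to 7.83% of Psmb6 in MCS, 5.27 to 8.60% in MCD and 4.40 to 5.48% in HGPP livers. Psmb10 was at 140.0 to 231.6% of Psmb7 in MCS, 210.4 to 914.8% in MCD and 129.2 to 325.3% in HGPP livers. Psme1 was at 113.3 to 162.7%, 131.0 to 148.1% and 101.04 to 136.4% of Psme2. In all 4 ratios the 3 groups overlapped.

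The 17 genes of the 19S cap had a median log2 fold change of 0.02 in MCD, the lowest of the 3 main groups of members, where that of all genes was 0.40. The cap's medians in single MCD livers against the MCS mean were -0.07, 0.50 and -0.14, where those of all genes were 0.33, 0.52 and 0.37. In MCD replicates 1 and 3, the livers with the highest mitochondrial sums, cap genes went both ways. In replicate 1 they ran from -1.10 (Psmd13) to 0.44 (Psmd4), with 11 of the 17 below the MCS mean. In replicate 3 they ran from -0.86 (Psmd1) to 0.54 (Psmd4), with 10 below it. Of the MCD livers, replicate 2 was the highest for 15 of the 17. MCD replicate 2 was the highest of its group for 51.2% of all genes. In the HGPP livers the cap's medians were 0.30, 0.27 and 0.38, and those of all genes were 0.36, 0.42 and 0.22. No cap gene was called in MCD against MCS, and 3 of the 17 rose in HGPP against MCS, namely Psmd8, Psmc4 and Psmd13, where 16.4% of all genes rose. Against MCD, the cap's median in HGPP livers was 0.27 and that of all genes was -0.07, with 0 cap genes called.

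Psmd8 encodes RPN12, a lid subunit that joins late in lid assembly. It was at 36.3, 30.5 and 37.3 FPKM in MCS, at 34.0, 87.8 and 45.4 in MCD and at 69.4, 100.9 and 96.3 in HGPP livers. All HGPP livers were above all MCS livers, and MCD replicate 2 lay among the HGPP livers whereas MCD replicate 1 lay among the MCS livers. It rose 2.53-fold in HGPP against MCS, a log2 fold change of 1.34 (SE 0.17, adjusted p = 0.0023, limma), the largest of any member in that comparison. With median-of-ratios scaling the rise was 0.99 (adjusted p = 0.020). The call held under every one of the 17 alternatives run, with adjusted p from 0.0014 to 0.020. The difference of HGPP from MCD was 0.77 (SE 0.33, adjusted p = 0.35), and that of MCD from MCS was 0.57 (SE 0.31, adjusted p = 0.21). Its exons (chr7:29174188-29180701, minus strand, GRCm38) overlap those of no other annotated gene, and it was counted on 1193 to 4620 fragments per liver.

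Psmc4 encodes RPT3, an ATPase of the cap's ring. It was at 41.4, 38.1 and 37.6 FPKM in MCS, at 48.9, 62.8 and 50.9 in MCD and at 54.3, 61.3 and 58.3 in HGPP livers. Both groups on the deficient diet lay above MCS, and it rose by 0.57 in HGPP livers (SE 0.13, adjusted p = 0.018, limma). In MCD the difference was 0.47 (SE 0.19, adjusted p = 0.10). Psmd13 encodes RPN9, another lid subunit, and was at 18.4, 16.4 and 17.1 FPKM in MCS, at 8.01, 27.2 and 16.8 in MCD and at 20.4, 28.0 and 27.6 in HGPP livers. It rose by 0.54 in HGPP against MCS (SE 0.16, adjusted p = 0.047), while its MCD livers spread over the ranges of both other groups. Psmd13 shares 10.1% of its exon bases with Sirt3 on the opposite strand, and Sirt3 was lower in HGPP livers, at 5.96 to 8.34 FPKM against 10.3 to 12.0 in MCS. With median-of-ratios scaling Psmc4 and Psmd13 differed from MCS by 0.22 and 0.18 in HGPP livers and were not called. The call of Psmc4 was also lost without MCS replicate 2 or 3 or HGPP replicate 2 or 3, and that of Psmd13 without any of these or MCS replicate 1.

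Psmd7 encodes RPN8, which forms with Psmd14 the pair that removes ubiquitin from substrates. It was at 28.1, 27.1 and 35.8 FPKM in MCS, at 15.2, 39.5 and 21.8 in MCD and at 36.2, 37.2 and 42.3 in HGPP livers. Like Psmb7 it was lowest in MCD replicates 1 and 3. The difference of HGPP from MCD, 0.70 (SE 0.31, adjusted p = 0.36, limma), had an unadjusted p of 0.050. The remaining 13 cap genes ran from -0.36 (Psmd1) to 0.50 (Psmd4, a ubiquitin receptor) in MCD against MCS, and none of them passed.

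**Figure D3:**
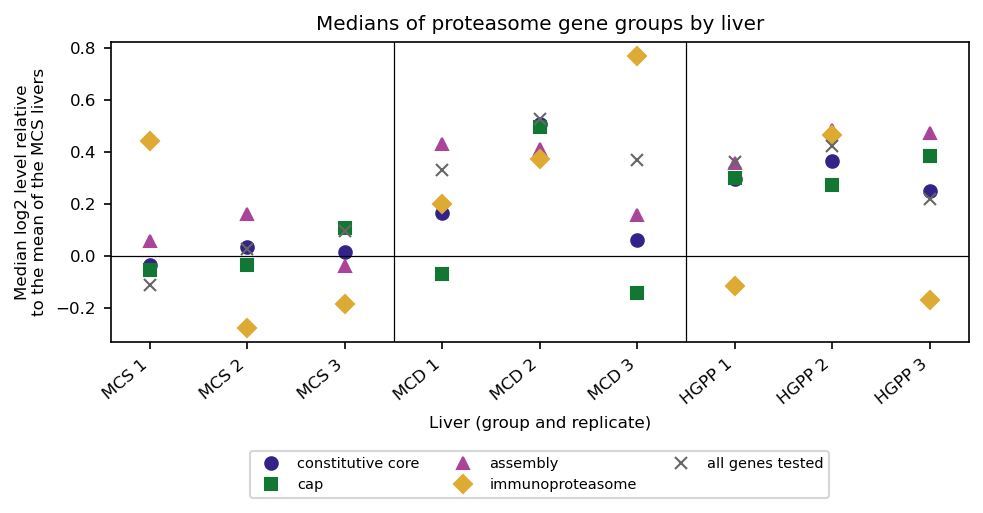
Median log2 level, relative to the mean of the MCS livers, of the constitutive core (14 genes), the cap (17), the assembly factors (7), the immunoproteasome (5) and all 13817 genes tested, 1 symbol each per liver. The cap lay at -0.07 and -0.14 in MCD replicates 1 and 3 and at 0.27 to 0.38 in the HGPP livers, and the immunoproteasome lay at 0.20, 0.37 and 0.77 in the MCD livers.

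Among the assembly factors, Psmg2 encodes PAC2, which pairs with PAC1 to build the alpha ring. It was at 6.67, 8.14 and 7.07 FPKM in MCS, at 11.9, 15.4 and 11.3 in MCD and at 14.7, 14.5 and 11.2 in HGPP livers. It rose by 0.80 in MCD (SE 0.21, adjusted p = 0.026, limma) and by 0.87 in HGPP against MCS (SE 0.17, adjusted p = 0.011), with no overlap with MCS in either case. Psmg4 encodes PAC4, which works with PAC3 on the same ring. It was at 19.3, 20.4 and 15.3 FPKM in MCS, at 34.2, 27.2 and 33.1 in MCD and at 23.3, 39.1 and 29.4 in HGPP livers. It rose by 0.78 in MCD (SE 0.21, adjusted p = 0.024) and by 0.71 in HGPP livers (SE 0.21, adjusted p = 0.042).

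Between HGPP and MCD livers, Psmg2 and Psmg4 differed by 0.07 and -0.07 with 95% intervals of -0.41 to 0.55 and -0.59 to 0.46. With median-of-ratios scaling their differences from MCS were 0.39 and 0.36 in MCD and 0.52 and 0.36 in HGPP livers, and none was called. In MCD the call of Psmg2 was lost without any 1 of 5 livers (all but MCD replicate 1), and that of Psmg4 without any 1 of 4 (the MCS livers and MCD replicate 3). In HGPP livers the call of Psmg2 held with each liver left out, and that of Psmg4 was lost without any 1 of 5, all but HGPP replicate 1. The partner genes Psmg1 (PAC1) and Psmg3 (PAC3) did not pass, at 0.34 and 0.23 in MCD and 0.39 and 0.05 in HGPP against MCS. The chaperones of the cap's base, Psmd5, Psmd9 and Psmd10, did not pass either.

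**Figure D4:**
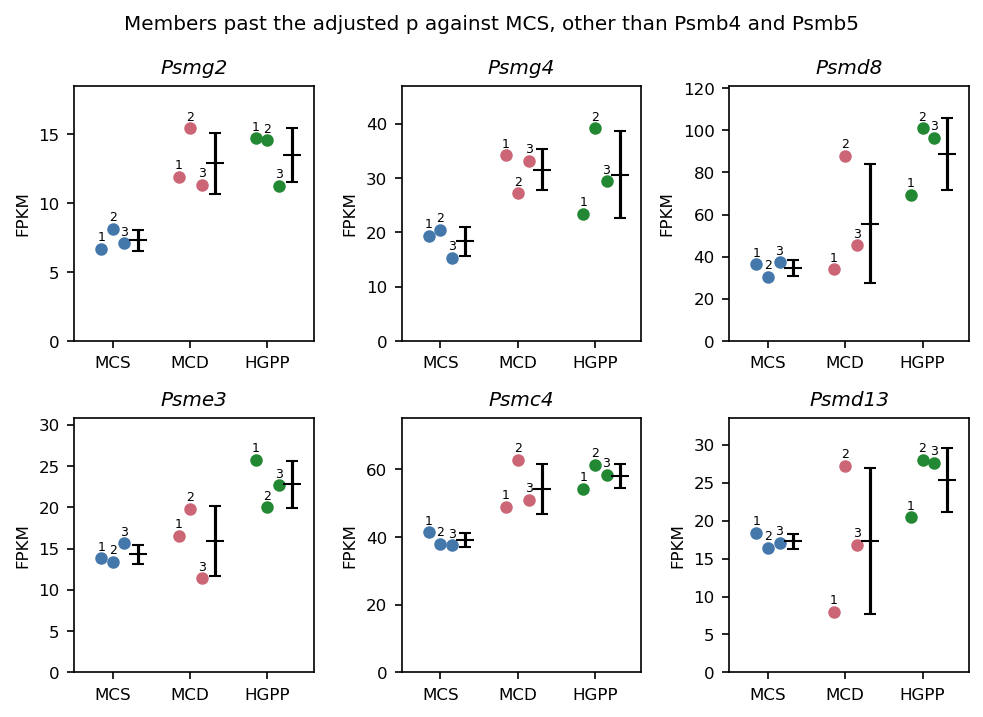
FPKM (linear axis from 0) of Psmg2, Psmg4, Psmd8, Psme3, Psmc4 and Psmd13 with 1 numbered point per liver and bars for the mean and SD of 3 livers in each group. In each panel all HGPP livers were above all MCS livers, and Psmd8 and Psmd13 spread most among the MCD livers.

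Of the other activators, Psme3 encodes PA28 gamma, the nuclear activator that interferon-gamma does not induce. It was at 13.8, 13.4 and 15.6 FPKM in MCS, at 16.6, 19.8 and 11.4 in MCD and at 25.7, 19.98 and 22.6 in HGPP livers. It rose by 0.67 in HGPP against MCS (SE 0.15, adjusted p = 0.019, limma) and was 1 of 2 members whose HGPP livers all lay above the MCD livers, the other being Psmd9, where 5.83% of all genes did. The difference from MCD was 0.54 (SE 0.24, adjusted p = 0.36). With median-of-ratios scaling it differed from MCS by 0.31 and was not called, and the call was also lost without MCS replicate 2 or HGPP replicate 1 or 3. Psme4 (PA200) and the inhibitor Psmf1 (PI31) differed from MCS by -0.17 and 0.28 in MCD and by 0.29 and 0.16 in HGPP livers without passing. Psma8 was the 1 member with all HGPP livers below all MCD livers, where 11.3% of all genes were, at 0.450, 0.137 and 0.256 FPKM against 0.454, 0.6002 and 0.642.

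Across all members, HGPP livers lay above MCS livers without overlap for 29 of 49 (59.2%), and 36.7% of all genes did. These were 11 of the 14 core genes, 11 of the 17 cap genes, 5 of the 7 assembly genes and 0 of the 5 immunoproteasome genes, with Psme3 and Psme4. For MCD against MCS the count was 13 of 49 (26.5%), beside 38.1% of all genes. Overlap was judged on unscaled FPKM. In HGPP against MCD, 37 of the 49 members had a log2 fold change above the median of all genes, with 0 members called. They included all 17 cap genes and 0 of the 5 immunoproteasome genes. In HGPP against MCS, 20 of the 49 members had a log2 fold change above the median of all genes. The median of the 49 was 0.30 and that of all genes was 0.33. With median-of-ratios scaling these medians were -0.05 and 0.01. The SD between livers on the log2 scale had a median over the 17 cap genes of 0.13 in MCS, 0.46 in MCD and 0.14 in HGPP livers, and over all genes of 0.26, 0.37 and 0.26. For the core these were 0.10, 0.27 and 0.11. The plot of fold changes shows the same 47 genes with their intervals.

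**Figure D5:**
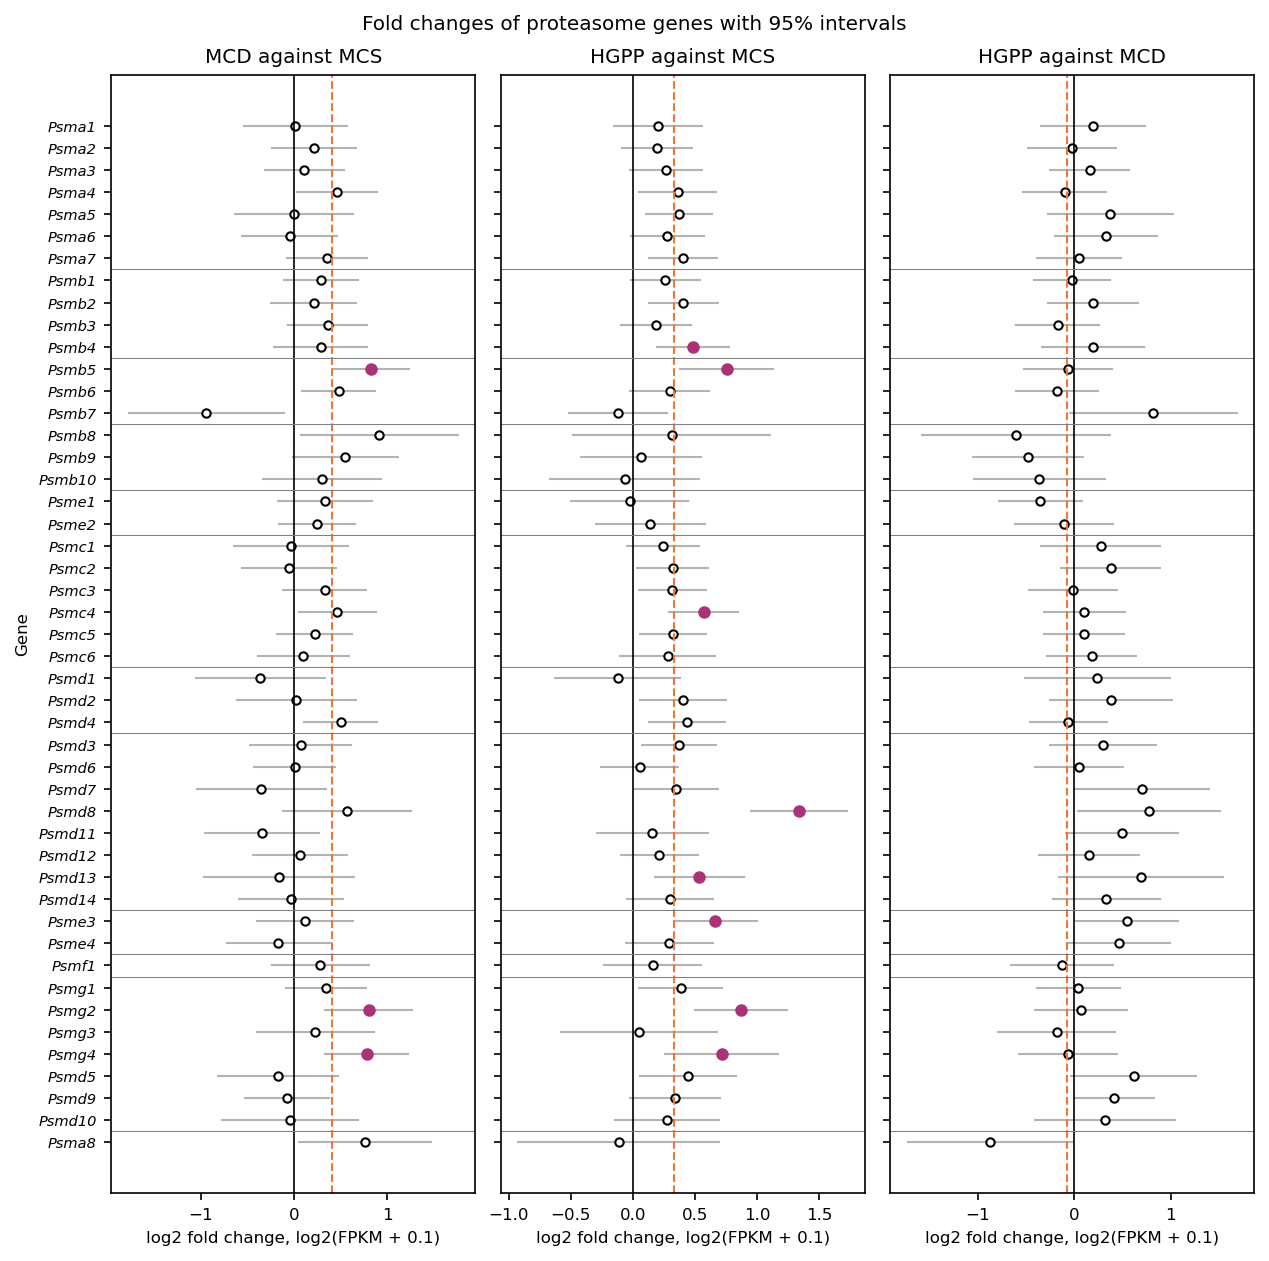
Log2 fold change with its 95% interval (limma, log2(FPKM + 0.1), 3 livers per group) for 47 proteasome genes in each comparison, with filled points for an adjusted p under 0.05, a solid line at 0 and a dashed line at the median of all genes tested (0.40, 0.33 and -0.07). Filled points were 3 in MCD against MCS, 8 in HGPP against MCS and 0 in HGPP against MCD.

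Of 12 factors that work with the proteasome 11 were in the table, and 1 of them rose in MCD and 2 in HGPP against MCS, where 19.6% and 16.4% of all genes rose. Sem1, the smallest lid subunit, rose in MCD by 0.62 (adjusted p = 0.041, limma), from 13.2, 15.2 and 13.3 FPKM to 22.5, 20.3 and 21.4. In HGPP against MCS, Txnl1, a thioredoxin bound to the cap, rose by 0.65 (adjusted p = 0.011) and Adrm1, the ubiquitin receptor RPN13, by 0.48 (adjusted p = 0.038). Of 9 genes that make or process NRF1 or its relative NRF2, none was called in MCD and 1 rose in HGPP against MCS, Nploc4, a cofactor of the p97 ATPase (0.57, adjusted p = 0.042). Nfe2l1 itself was at 22.8, 23.7 and 31.8 FPKM in MCS, at 26.1, 28.3 and 19.9 in MCD and at 27.2, 23.8 and 31.3 in HGPP livers. Of 5 ubiquitin genes, Rps27a, which encodes ubiquitin fused to a ribosomal protein, rose by 0.66 in MCD (adjusted p = 0.039) and by 0.74 in HGPP livers (adjusted p = 0.029). None of these calls remained with median-of-ratios scaling, where Ubqln1, a shuttle factor, and Uba1, the ubiquitin-activating enzyme, were lower in MCD (-0.92 and -0.73, adjusted p = 0.030 and 0.038).

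The partners of the immunoproteasome in antigen presentation were not called on unscaled FPKM, where none of 11 class I presentation genes passed in any comparison. The smallest unadjusted p in MCD against MCS belonged to Tap2, a subunit of the peptide transporter (0.64, adjusted p = 0.080, limma), and Calr, a chaperone of class I molecules (-0.63, adjusted p = 0.10). With median-of-ratios scaling 4 of the 11, the chaperones Calr, Canx and Pdia3 and the peptidase Erap1, were lower in MCD, where 7.37% of all genes were. In HGPP against MCD the smallest unadjusted p values were those of Canx (0.72, adjusted p = 0.34) and Tap2 (-0.59, adjusted p = 0.36). Tap1 was at 7.26, 4.96 and 4.52 FPKM in MCS, at 3.38, 7.56 and 11.2 in MCD and at 4.53, 5.55 and 4.27 in HGPP livers, with its group maxima in the livers named for the immunoproteasome.

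Among 20 interferon-stimulated genes, 1 rose and 3 fell in MCD, where 19.6% of all genes rose and 2.55% fell. In HGPP against MCS 2 rose and 3 fell, where 16.4% of all genes rose and 2.48% fell. With median-of-ratios scaling 0 were higher and 6 lower in MCD, and 0 higher and 4 lower in HGPP livers, where 7.37% and 4.86% of all genes were lower. Those that fell in both were Igtp, Iigp1 and Irgm1, GTPases that interferon-gamma induces in mouse cells. Iigp1 was at 57.1, 70.7 and 95.6 FPKM in MCS, at 39.1, 27.6 and 30.9 in MCD and at 43.3, 35.4 and 43.0 in HGPP livers. Its log2 fold change was -1.17 in MCD (adjusted p = 0.0090, limma) and -0.85 in HGPP livers (adjusted p = 0.020), and the calls of all 3 genes held with median-of-ratios scaling. Igtp fell by 1.18 in MCD (adjusted p = 0.036) and by 1.03 in HGPP livers (adjusted p = 0.020), and Irgm1 fell by 0.91 (adjusted p = 0.028) and by 0.62 (adjusted p = 0.031). The gene that rose in both was Oasl2, by 1.22 in each (adjusted p = 0.037 and 0.030), joined in HGPP livers by Ifit2 (0.85, adjusted p = 0.037), and neither was called after scaling. In HGPP against MCD none of the 20 passed, and the smallest unadjusted p was that of Irf1, a transcription factor of the immunoproteasome genes (-0.81, SE 0.27, adjusted p = 0.26).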

How the data were processed

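Liver RNA of 3 groups of 3 mice was sequenced, and the authors deposited FPKM for 21936 genes. Trimming, alignment and counting came before: Cutadapt and HTSeq appear in the study's methods, whereas STAR 2.7.7a, featureCounts 2.0.0 and fastp 0.20.1 appear in the submitters' notes, and which were used is not stated. No source used here names the build. With exon lengths of GENCODE vM21 (GRCm38), 98.13% of 115865 values of up to 1000 fragments came out whole within 0.02, which gave depth, symbols and coordinates.

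Each pair of groups was fitted with limma 3.58.1 (lmFit, eBayes with trend, R 4.3.3) on log2(FPKM + 0.1). Genes at an FPKM of 0.1 or more in at least 3 of 9 livers were kept (13817), and p was adjusted by Benjamini-Hochberg over all of them. A fold change on this scale understates that of low genes. The libraries are separate livers by their labels and the study's methods, and p-values measure the spread between them. Python 3.11.15, pandas 2.3.3 and matplotlib 3.10.9 made tables and plots. The code was tested on simulated data. Named members were the catalytic, immunoproteasome and PA28 genes, up to 6 called members per direction and comparison, and otherwise the 4 of smallest p. Psmb4 is named beyond this rule. Lists were named by up to 4 called genes or the 2 of smallest p, beside genes chosen after their values were seen (Nfe2l1, Tap1 and the genes that share exons with a member). The members and lists were chosen with earlier results of these data known. Alternatives were pseudocounts of 0.01 and 1, no filter or one at an FPKM of 1, other scalings, 1 fit over 9 livers, each liver left out, the replicate number as a block and eBayes with no trend. limma's voom on recovered fragments was added after seeing the data. Paaf1 and Tf are not analysed here.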

Additional observations from a re-analysis of the deposited data

How the results depend on the processing

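The call of Psmd8 in HGPP against MCS and the absence of calls in HGPP against MCD held under every alternative run. Of the 864 values of the 17 named members under alternatives, 789 stayed on their side of the threshold, 71 lost the call and 4 gained it. Most of the 864 belonged to genes not called in the main fit, which had no call to lose. All 71 losses fell on the 3 calls in MCD and the 8 in HGPP against MCS. Out of 17 alternatives, losses per MCD call ran from 4 (Psmb5) to 9 (Psmg2). Losses per HGPP call ran from 0 (Psmd8) to 11 (Psmd13 and Psmg4). A change of sign in a gene called in neither fit was counted as no change, which happened 40 times. The count of members called in MCD against MCS, 3 in the report, was 1 with median-of-ratios scaling (Psmb7, lower), 1 with quantile normalization and 5 in a single fit over 9 livers. In HGPP against MCS the count, 8 in the report, was 1 with median-of-ratios scaling, 2 with quantile normalization, 4 in the single fit and 4 with no trend. It was higher, at 9, with a pseudocount of 1, and at 11 with every library rescaled to the same FPKM sum (TPM). TPM gave 2 members in MCD against MCS. With voom, chosen after seeing the data, the counts were 3 in MCD and 7 in HGPP against MCS. Leaving out 1 liver at a time gave 0 to 4 members in MCD against MCS, with 0 without MCS replicate 1 or MCS replicate 3 and 1 without MCS replicate 2 or MCD replicate 3. It gave 3 to 7 in HGPP against MCS, with 3 without MCS replicate 2, MCS replicate 3, HGPP replicate 2 or HGPP replicate 3, and 5 without MCS replicate 1. The cause of these changes was not tested. Median-of-ratios scaling moved the group medians of log2 fold change to -0.17 (core), -0.091 (immunoproteasome) and -0.40 (cap) in MCD against MCS, and to -0.066 (core) and -0.031 (cap) in HGPP against MCS. With the replicate number as a block, 0 members were called in MCD against MCS and 5 in HGPP against MCS. The deviations of same-numbered livers correlated at -0.34, -0.31 and -0.26 between MCD and MCS, at 0.30, 0.02 and -0.16 between HGPP and MCD and at -0.31, -0.02 and 0.02 between HGPP and MCS across genes. Deviations were taken from the mean of 3 livers, which ties these values together. They therefore cannot show whether the numbers pair livers. With 3 livers a group, genes that missed the threshold are not shown to be unchanged.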

Other observations

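These ratios between constitutive subunits were chosen after their values were seen, and are given with no test. The proteins of Psmb5, Psmb6 and Psmb7 are built into the barrel in equal numbers. FPKM is scaled to the merged exon length, which is 899 bases for Psmb5, 1872 for Psmb6 and 3421 for Psmb7. The percentages are therefore compared between livers only and do not measure a balance of transcripts. Psmb5 was at 52.4, 53.9 and 46.6% of Psmb6's FPKM in MCS, at 66.6, 65.4 and 61.7% in MCD and at 70.8, 74.7 and 64.7% in HGPP livers. Every liver on the deficient diet was above every MCS liver, under any scaling by 1 factor per library. The ratios of single livers were not computed with quantile normalization. Psmb7 was at 50.5, 33.9 and 54.9% of Psmb5 in MCS, at 10.1, 25.0 and 9.22% in MCD and at 29.3, 16.3 and 31.5% in HGPP livers. Both groups on the deficient diet lay below MCS, with MCD and HGPP overlapping. The lowest of these ratios were in MCD replicates 1 and 3, the livers with the lowest RNA integrity number and the highest mitochondrial sums. Whether either has a part in them was not tested. Psmd8 was at 87.8, 80.2 and 99.2% of Psmc4, a subunit of the same cap, in MCS, at 69.5, 140.0 and 89.2% in MCD and at 127.8, 164.6 and 165.3% in HGPP livers, where HGPP lay above MCS and overlapped MCD. Psme2b, the copy of Psme2, was at 38.8 to 58.9% of the FPKM of Psme2 in all 9 livers, and how reads that fit both genes were assigned is not given.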
